A study of Mus musculus with 6 samples.

Results

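Genes of the ubiquitin and proteasome system were followed through the first days of life of the mouse ovary. Probes were taken when their annotation held "proteasome", "ubiquitin" or "F-box". That gave 98 of the 8272 probes on the array, and 1 further ligase gene, with 2 probes, is left out by the rule. The 98 probes carry 75 annotation names, and the probe with the highest mean intensity over the 6 arrays stands for each name. By role the 75 names fall into 11 subunits of the 20S core, 12 proteins of the 19S regulatory particle and other proteasome proteins, 19 ubiquitin or ubiquitin-like genes and activating or conjugating enzymes, 8 ligases and other ubiquitin-annotated genes, 14 ubiquitin proteases and 11 F-box genes. 73 names lead to a known gene symbol, and 2 are expressed sequences described only as resembling a ligase (Nedd4) and a protease (FAF-X).

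Whole ovaries of C57Bl/6J mice were compared on spotted cDNA arrays with 2 dyes. Each array set RNA of day 4 ovaries (3 arrays) or day 2 ovaries (3 arrays), labelled with Cy5, against RNA of newborn ovaries under 24 hours old (day 0), labelled with Cy3. No treatment or mutation was applied, and per the series text follicles begin to assemble at day 2 and to grow soon after. Every value is a log2 ratio of the later day over day 0, the mean of 4 repeats of a probe, so that 1 stands for a doubling against day 0. Whether a label stands for 1 animal or a pool is not given in the sources used here, so p-values measure only the spread between these arrays. In whole tissue, fewer cells of a type and less RNA per cell cannot be told apart.

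Ubiquitin is a small protein that is attached to other proteins by a chain of enzymes. An activating enzyme (E1) charges it, a conjugating enzyme (E2) carries it, and a ligase (E3) places it on the target, while ubiquitin proteases take it off again. Proteins that carry ubiquitin chains are mostly unfolded by the 19S regulatory particle and cut up inside the 20S core, which together form the proteasome. F-box proteins are the part of cullin ligases that recognises the target, and in the ovary such ligases and the proteasome act in the meiotic cell cycle of the oocyte.

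The promoters of 3 members are shown because these genes stand near the ends of the day 4 values or represent a class that lay on one side of 0: Ubb, a gene that encodes chains of ubiquitin, Psma1, a 20S core subunit, and Psme1, a subunit of a proteasome activator. Each line gives the 250 bases before the first transcription start that RefSeq lists, on the gene's strand, in build GRCm38.p6, and capitals mark CCAAT, the letters of the CCAAT box, on either strand. Ubb lies at chr11:62550921-62551170 on the plus strand, Psma1 at chr7:114276117-114276366 on the minus strand and Psme1 at chr14:55578244-55578493 on the plus strand.
Ubb: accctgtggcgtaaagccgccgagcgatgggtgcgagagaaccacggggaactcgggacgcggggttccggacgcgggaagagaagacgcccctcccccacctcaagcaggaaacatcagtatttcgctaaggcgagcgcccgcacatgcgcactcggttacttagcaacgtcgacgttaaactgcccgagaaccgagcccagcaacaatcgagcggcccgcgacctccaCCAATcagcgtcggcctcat
Psma1: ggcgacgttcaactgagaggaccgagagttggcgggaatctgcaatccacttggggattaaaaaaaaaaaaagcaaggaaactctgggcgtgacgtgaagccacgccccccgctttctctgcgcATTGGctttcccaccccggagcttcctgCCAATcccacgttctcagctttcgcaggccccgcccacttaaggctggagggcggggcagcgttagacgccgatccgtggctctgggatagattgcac
Psme1: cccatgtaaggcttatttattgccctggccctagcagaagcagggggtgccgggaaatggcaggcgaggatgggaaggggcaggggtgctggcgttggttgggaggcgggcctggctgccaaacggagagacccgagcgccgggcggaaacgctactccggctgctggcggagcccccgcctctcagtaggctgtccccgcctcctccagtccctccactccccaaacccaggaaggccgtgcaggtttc

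The CCAAT letters begin 20 bases before the start of Ubb. In Psma1 they occur on the minus strand 126 bases before the start and on the plus strand 98 bases before it. RefSeq's table held a promoter for 51 of the 73 members with a symbol, and 20 of the 51 (39.2%) had CCAAT in this window, against 34.5% of 27025 genes in the table. By class, 5 of 8 promoters of 20S core subunits had it (62.5%), those of Psma1, Psma3, Psma6, Psma7 and Psmb3. So did 4 of 7 promoters of F-box genes (57.1%) and 2 of 9 of 19S and other proteasome proteins (22.2%). The share was 28.6% for ligases and other genes, 33.3% for proteases and 36.4% for ubiquitin, E1 and E2 genes. GAANNTTC, the core of the heat-shock element, was in 1 member's window (1.96%, against 6.79% of all genes). TGACNNNGC, the core of the antioxidant response element, was in 6 (11.8%, against 10.1%), and TATAAA, the TATA box, in 4 (7.84%, against 13%). The 4 motifs were searched on both strands. A match is a description of letters in a window and not of a binding site.

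The arrays limit what can be said of single genes. Probes with values numbered 5630 to 8272 on the day 4 arrays, fewest on array 3, and 8272 on each day 2 array. Across all probes the 3 day 4 arrays correlated with r of 0.444 to 0.752, whereas day 2 arrays 1 and 2 correlated with r = −0.675, although the headers give both the same dyes and direction. The direction of the day 2 values is therefore not settled, and day 2 values of single genes are given as deposited. Class medians, counts over members and fitted differences between the ages are also given with the sign of array 1 or of array 2 turned. Day 4 array 3 and day 2 array 3 shared a day 0 RNA, per the file headers, and correlated with r = 0.767. All arrays have the same dye orientation, so that a dye effect of a probe cannot be told apart from a difference from day 0.

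74 of the 75 names had values on at least 2 arrays of each age and were tested with limma across all 8135 such probes. The fit takes 1 variance per probe from all 6 arrays. The SE and p-value of a day 4 value therefore also carry the spread of the day 2 arrays. None of the 74 passed an adjusted p of 0.05 at day 4 against day 0. Of all probes 0.479% passed there, 39 of them higher and 0 lower. At an unadjusted p under 0.05, 1 member was higher (Ubb), against 5% of all probes, and 2 were lower (Psma6 and Psme1), against 4.29% of all probes. At day 2 against day 0, 0 members and 0% of all probes passed by limma, and 0 members higher and 1 lower (Psme1) had an unadjusted p under 0.05, against 1.72% and 1.12% of all probes. At day 4 against day 2, 0 members and 0% of all probes passed, and 0 members had an unadjusted p under 0.05, against 1.97% of all probes higher and 0.676% lower. When day 2 array 1 was turned in sign, 0 members passed either comparison with day 2 in it, and at an unadjusted p under 0.05 the members numbered 9 higher and 16 lower at day 2 (11% and 12.1% of all probes) and 7 higher and 3 lower for day 4 against day 2 (7.04% and 4.4% of all probes). When array 2 was turned, 0 passed likewise, with 8 higher and 13 lower at day 2 (6.29% and 7.47% of all probes) and 4 higher and 7 lower for day 4 against day 2 (5.65% and 3.21% of all probes). No member can thus be called changed by the test across all probes, and what follows describes the size, direction and spread of the values.

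The members leaned below 0 on day 4 arrays 1 and 2 but not on array 3. 51 of 72 values were below 0 on array 1, 56 of 75 on array 2 and 24 of 50 on array 3, with medians of −0.129, −0.217 and 0.035. 50 of 74 fitted log2 ratios were negative at day 4 (67.6%), against 50.2% of all probes, with a median of −0.135 against −0.001 for all probes. The members were brighter, with a median log2 intensity of 11.32 against 9.63 for all probes. Shares, medians and SDs set against all probes, here and below, thus do not compare probes of like intensity. On every day 4 array with a value, 32 members were below 0, against 25.2% of all probes, and 9 were above 0, against 28.4%. At day 2, 44 of 74 fitted values were below 0 (59.5%), against 47.6% of all probes, and on all 3 day 2 arrays 4 members were below 0 and 5 above 0, against 7.33% and 9.13% of all probes. With the sign of array 1 turned the fitted values below 0 at day 2 became 36 (48.6%), against 49.3% of all probes, and when array 2 was turned they became 38 (51.4%), against 49.3%. By role, the class medians at day 4 were −0.36 for the 20S core, −0.18 for 19S and other proteasome proteins, −0.16 for ubiquitin, E1 and E2 genes and −0.16 for F-box genes, with 0.04 for ligases and other genes and −0.01 for proteases. Single arrays weighed on these medians: without day 4 array 2 that of the core was −0.176 and that of ubiquitin, E1 and E2 genes −0.051, and without day 4 array 3 that of the F-box genes was −0.035 and that of 19S and other proteasome proteins −0.293. Proteasome members of both kinds together had 20 of 23 fitted values below 0, with a median of −0.26. The difference between classes was not tested, since the classes are lists chosen with results known.

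**Figure D1:**
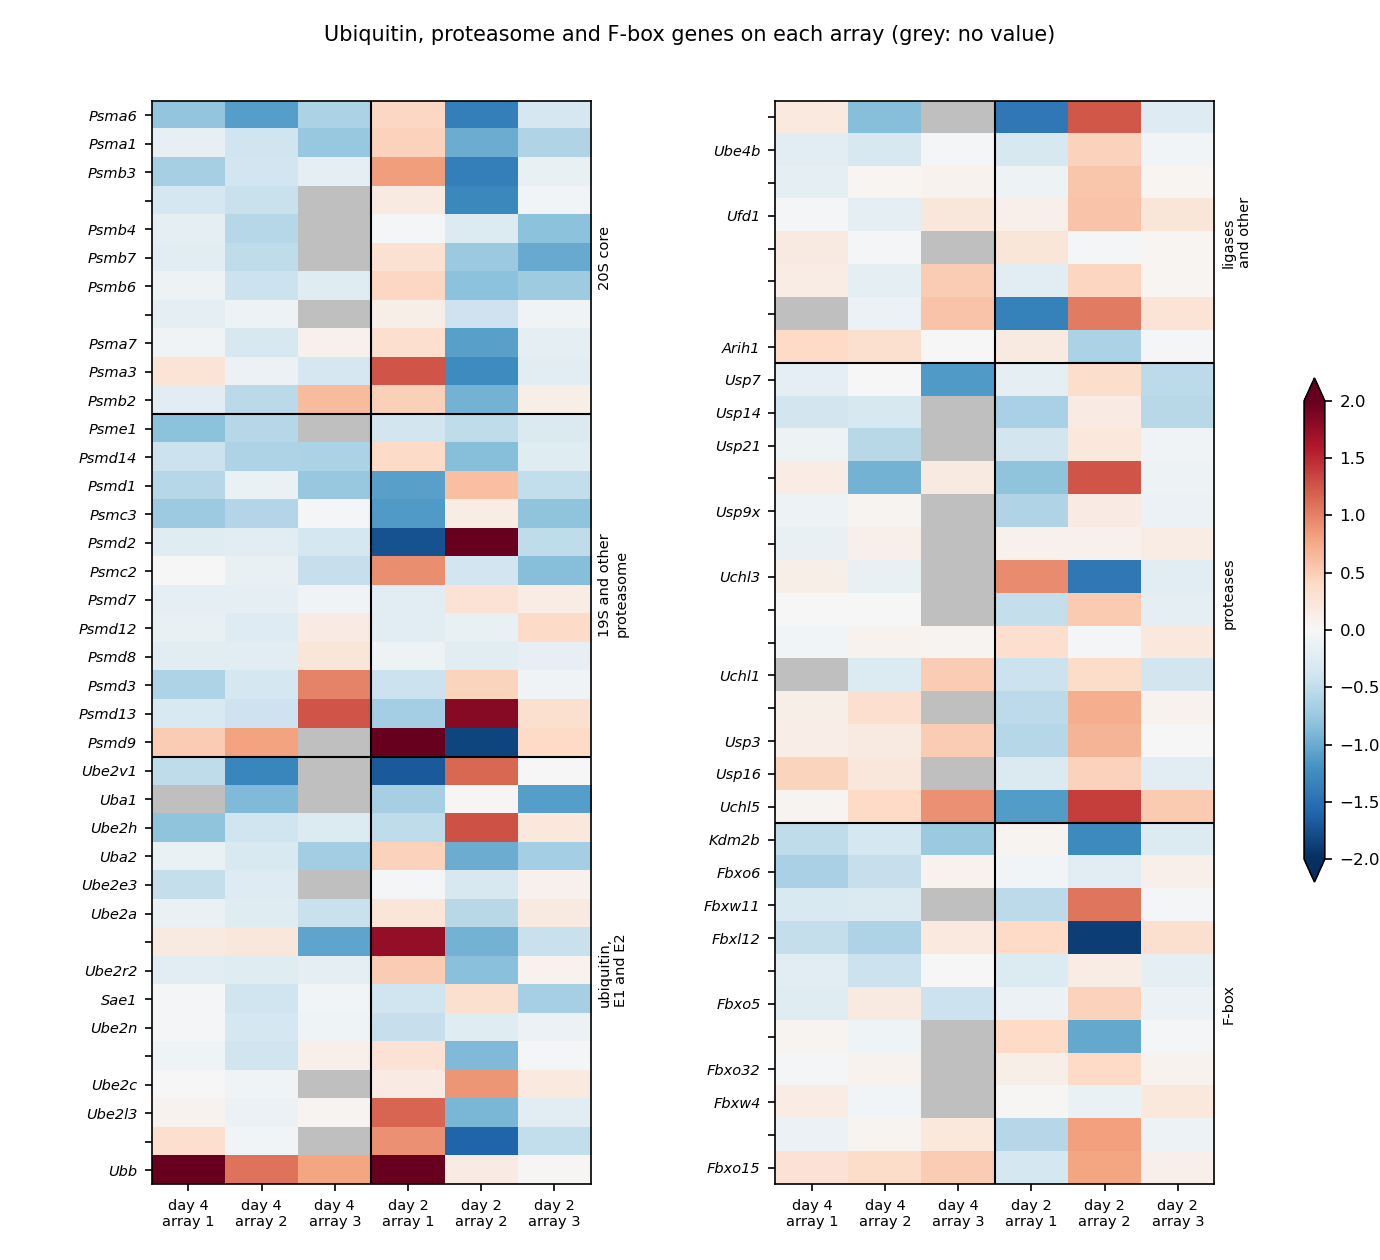
Log2 ratio of the later day over day 0 (colour, blue below 0 and red above 0, scale ending at −2 and 2) for 71 of the 75 genes (rows, by class and by their day 4 mean, labelled where the text names them) on the 6 arrays (columns, day 4 left, day 2 right), with grey where there is no value. The 20S core is mostly blue on the day 4 arrays and on day 2 array 2, and red in 10 of 11 genes on day 2 array 1.

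Ubb, which encodes ubiquitin as a head-to-tail chain, had one of the highest fitted ratios among the members at day 4. Ubb had log2 ratios of 2.12, 1.08 and 0.78 on day 4 arrays 1, 2 and 3, against 2.14, 0.17 and 0.02 on day 2 arrays 1, 2 and 3. All 6 arrays lay above 0, array 1 was the highest array of each age, and the day 4 and day 2 arrays overlapped.

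The fitted day 4 log2 ratio of Ubb was 1.33 ± 0.47 (SE, n = 3), a fold of 2.51 with an adjusted p of 0.449 by limma. It did not pass, and the day 4 arrays spread over more than 1 log2 unit. Against day 2, Ubb differed by 0.55 ± 0.66 (SE, log2, n = 3 arrays an age, adjusted p 1), and by 1.98 when day 2 array 1 was turned in sign and 0.66 when array 2 was turned (adjusted p 0.419 and 0.694). With the deposited signs Ubb was also the only member with values on all 6 arrays that was above 0 on each, among 48 such members, where 4.57% of all probes with 6 values were. Coding sequences of ubiquitin are near-identical between genes, and the part of other such genes in the signal of this spot was not tested.

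Uba1, the E1 that charges most ubiquitin, had a single day 4 value, −0.88 on array 2, against −0.67, 0.02 and −1.10 on the day 2 arrays. It was the 1 member not tested.

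**Figure D2:**
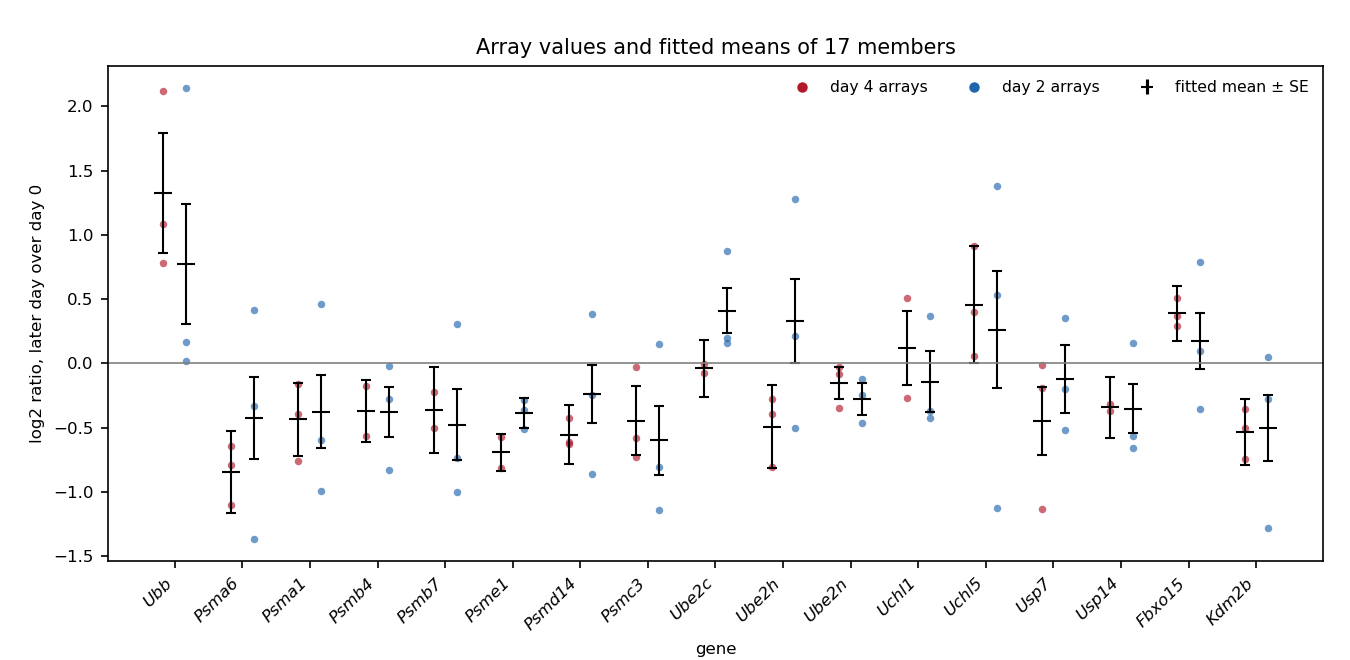
Log2 ratio of the later day over day 0 (vertical axis) on each day 4 array (red, left of each pair) and day 2 array (blue) for 17 members, with the fitted mean and its SE (black). Ubb has the highest fitted day 4 mean of the genes drawn, and Psma6, Psme1 and Psmd14 lie below 0 on every day 4 array with a value.

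Among the 18 tested ubiquitin, E1 and E2 genes, 12 fitted day 4 values were below 0, 10 genes were below 0 on every day 4 array with a value and 3 were above 0 on every one. The lowest fitted value among all members was that of Ube2v1, a catalytically inactive E2 variant that pairs with Ube2n, at −0.91 ± 0.67 (SE, n = 2), with −0.51 and −1.30 on day 4 arrays 1 and 2, against −1.67, 1.15 and 0.01 on the day 2 arrays. Ube2n, its partner in building ubiquitin chains that serve signalling and DNA repair, had −0.03, −0.35 and −0.08 on the day 4 arrays, against −0.47, −0.24 and −0.12 on the day 2 arrays. With the deposited signs it was the only member with 6 values that was below 0 on all of them, where 3.45% of such probes were, and its fitted day 4 log2 was −0.15 ± 0.12 (SE, n = 3, adjusted p 0.773). The values of Ube2n were small on every array, while those of Ube2v1 crossed 0 at day 2.

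Ube2e3, an E2 of the branch that serves many ligases, had −0.47 and −0.26 on day 4 arrays 1 and 2, against −0.04, −0.33 and 0.08 on the day 2 arrays. Ube2h, an E2 known for acting on histones and in red cell maturation, had −0.80, −0.39 and −0.28 on the day 4 arrays, against −0.50, 1.28 and 0.21 on the day 2 arrays. Both were below 0 on every day 4 array with a value, and the day 2 arrays of each lay on both sides of 0. With the deposited signs the fitted gap of Ube2h between the ages was −0.82 ± 0.46 (SE, log2, day 4 minus day 2, adjusted p 1), and it became −1.16 when day 2 array 1 was turned in sign and 0.03 when array 2 was turned (adjusted p 0.419 and 0.977).

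Ube2c, the E2 that works with the anaphase promoting complex at the exit from cell division, had −0.001 and −0.077 on day 4 arrays 1 and 2, against 0.16, 0.88 and 0.20 on the day 2 arrays. With the deposited signs every day 4 array lay below every day 2 array, by a fitted −0.45 ± 0.28 (SE, log2, n = 2 and 3, adjusted p 1). The arrays overlapped once the sign of day 2 array 1 or 2 was turned, at fitted differences of −0.34 and 0.13 (adjusted p 0.708 and 0.893). Ube2a, Ube2r2 and Ube2n were the other E2 genes below 0 on all 3 day 4 arrays by their brightest probes. Ube2a is a homologue of yeast Rad6, and Ube2r2 is a partner of cullin ligases. The fitted values of the 3 genes were −0.27, −0.22 and −0.15. The 2 probes of Ube2r2 had day 4 means of −0.22 and 0.13, on both sides of 0. The 4 probes of Ube2l3, an E2 that transfers ubiquitin to the cysteine of certain ligases, gave day 4 means of −0.33 to 0.01 and are taken up with the other shared names.

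The enzyme that activates SUMO, a ubiquitin-like modifier that changes protein contacts and position more than stability, was annotated with the same words. Uba2, a subunit of this enzyme, had −0.14, −0.30 and −0.69 on the day 4 arrays, and Sae1, the other subunit, had −0.04, −0.40 and −0.05. Both subunits lay below 0 on each day 4 array.

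All 11 measured subunits of the 20S core had a fitted log2 below 0 at day 4, from −0.84 to −0.05 with a median of −0.36. 8 of the 11 were below 0 on every day 4 array with a value and 0 were above 0 on every one. Per array, 10 of 11, 11 of 11 and 5 of 7 subunits were below 0 on day 4 arrays 1, 2 and 3, with medians of −0.19, −0.44 and −0.24. None passed the test across all probes, and Psma6 alone had an unadjusted p under 0.05.

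Psma6, a subunit of the outer alpha rings, had −0.79, −1.10 and −0.64 on the day 4 arrays, against 0.41, −1.36 and −0.33 on the day 2 arrays. Its fitted day 4 log2 was −0.84 ± 0.32 (SE, n = 3), a fold of 0.557 with an unadjusted p of 0.0386 and an adjusted p of 0.495 by limma. When the day 4 arrays were fitted without the day 2 arrays, an alternative added after the data were seen, Psma6 was the only member to pass, with an adjusted p of 0.0448. In that fit 1.63% of all probes were higher and 0.406% lower, and over all alternatives its adjusted p ran from 0.0448 to 0.999. The day 4 values of Psma6 lay closer together than its day 2 values, which lay on both sides of them.

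Psma1, another alpha subunit, had −0.16, −0.39 and −0.76 on the day 4 arrays, against 0.46, −0.99 and −0.60 on the day 2 arrays, and a fitted day 4 log2 of −0.44 ± 0.28 (SE, n = 3, adjusted p 0.716). Of the beta subunits, which form the inner rings, Psmb4 had −0.17 and −0.57 on day 4 arrays 1 and 2, against −0.02, −0.28 and −0.83 on the day 2 arrays, and was the only core subunit below 0 on all 3 day 2 arrays. Psmb7, which carries the trypsin-like active site, had −0.22 and −0.50 on the same day 4 arrays, against 0.30, −0.74 and −1.0 on the day 2 arrays. Psmb6, which carries the caspase-like active site, had −0.11, −0.44 and −0.24 on the day 4 arrays, against 0.42, −0.82 and −0.71 on the day 2 arrays. Day 2 array 1 was the highest of the arrays for each of these 4 subunits, and the day 4 values of each lay within the span of its day 2 values.

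Psma7, Psma3 and Psmb2 were the 3 core subunits with mixed signs at day 4, at fitted values of −0.10, −0.06 and −0.05. At day 2 the core as a whole turned over between arrays. Its median was 0.41 on day 2 array 1, −0.99 on array 2 and −0.21 on array 3, with 10 of 11 subunits above 0 on array 1 and 11 of 11 below 0 on array 2. The fitted day 2 median was −0.37, with all 11 below 0, and it became −0.65 with the sign of array 1 turned and 0.41 with the sign of array 2 turned. Day 4 minus day 2 had a median of 0.00, which became 0.32 with the sign of array 1 turned and −0.56 when array 2 was turned, so that no direction between the ages can be given for the core.

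**Figure D3:**
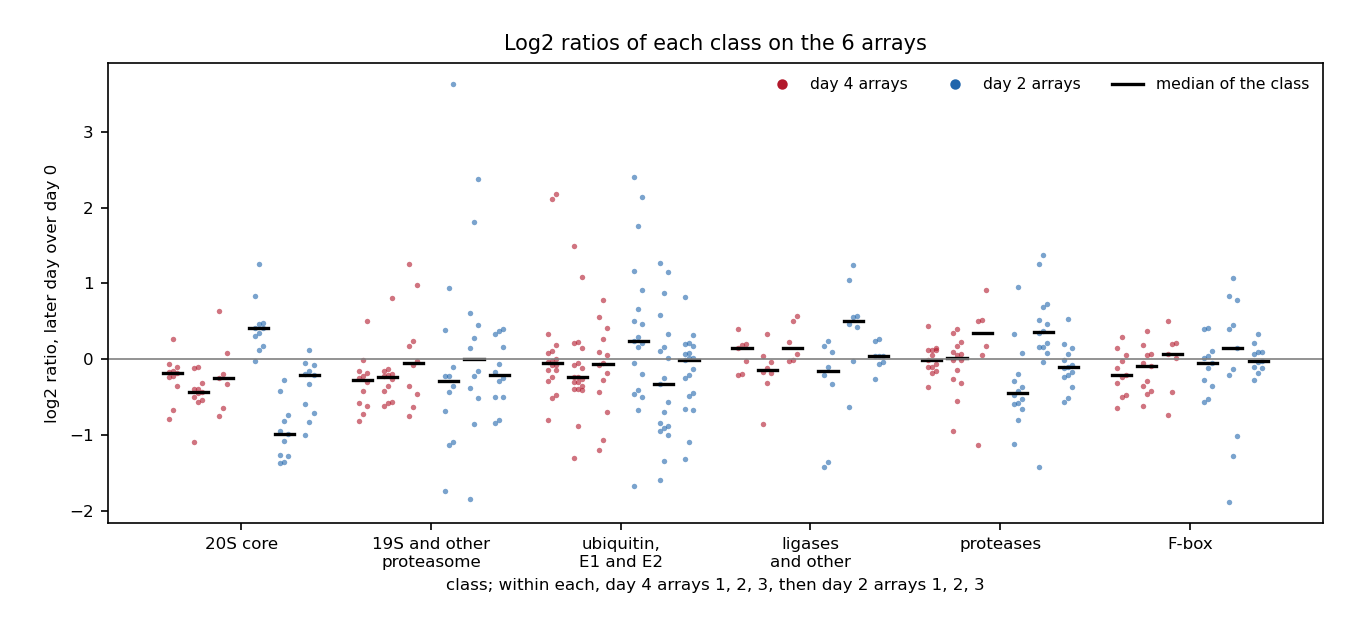
Log2 ratio of the later day over day 0 (vertical axis) of each member on day 4 arrays 1 to 3 (red) and day 2 arrays 1 to 3 (blue), by class, with the class median as a black bar. The 20S core median lies below 0 on the 3 day 4 arrays, at 0.41 on day 2 array 1 and at −0.99 on day 2 array 2, while that of the proteases runs the other way on the same 2 day 2 arrays.

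Psme1, a subunit of the activator that can cap the core in place of the 19S particle and is induced by interferon, had the smallest p-value of all members. It had −0.82 and −0.57 on day 4 arrays 1 and 2, against −0.36, −0.51 and −0.28 on the day 2 arrays. All 5 values were below 0, and both day 4 arrays lay below the 3 day 2 arrays. The fitted log2 was −0.69 ± 0.14 (SE, n = 2) at day 4, a fold of 0.619 with an unadjusted p of 0.00481 and an adjusted p of 0.202 by limma, and −0.39 at day 2. Day 4 minus day 2 was −0.31 ± 0.19 (SE, log2, adjusted p 1), and it was −0.55 and −0.65 when day 2 array 1 or array 2 was turned in sign (adjusted p 0.526 and 0.568).

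Among the 12 proteins of the 19S particle and other proteasome proteins, 9 fitted day 4 values were below 0 and 7 genes were below 0 on every day 4 array with a value. Psmd14, the protease of the particle's lid that removes ubiquitin chains as the target enters, had −0.42, −0.61 and −0.63 on the day 4 arrays, against 0.39, −0.86 and −0.24 on the day 2 arrays, with a fitted day 4 log2 of −0.56 ± 0.23 (SE, n = 3, adjusted p 0.543). When the day 4 arrays were fitted alone, its SE was 0.105 and its adjusted p 0.07 by limma. Psmc3, an ATPase of the ring that unfolds the target, had −0.73, −0.58 and −0.03 on the day 4 arrays, against −1.14, 0.15 and −0.80 on the day 2 arrays. Psmd1, a scaffold of the base, had −0.58, −0.13 and −0.75 on the day 4 arrays, against −1.09, 0.61 and −0.50 on the day 2 arrays. These 3 lay below 0 on each day 4 array and on both sides of 0 at day 2.

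Psmd2, the other scaffold of the base, had −0.25, −0.22 and −0.35 on the day 4 arrays, close together, against −1.74, 2.37 and −0.51 on the day 2 arrays. Psmd9, a chaperone in the assembly of the base, was the 1 protein of this class above 0 on every day 4 array with a value, with 0.50 and 0.81 on arrays 1 and 2, against 3.63, −1.84 and 0.40 on the day 2 arrays. These were the widest day 2 spreads among the proteasome members, and the fitted day 4 log2 of Psmd9, 0.65 ± 1.24 (SE, n = 2, adjusted p 0.913), carries that spread. Psmd3 and Psmd13, lid subunits, were below 0 on day 4 arrays 1 and 2 and at 0.99 and 1.26 on array 3. Psmd7, the partner of Psmd14 in the lid, and Psmd8 and Psmd12, also of the lid, had fitted day 4 values between −0.15 and −0.06.

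The class of ligases and other ubiquitin-annotated genes lay near 0 at day 4, with 3 of 8 fitted values below 0 and a range of −0.32 to 0.24. By the brightest probes, Ube4b, which lengthens ubiquitin chains, was the only gene of this class with the same sign on every day 4 array, with −0.21, −0.32 and −0.03, against −0.33, 0.46 and −0.06 on the day 2 arrays. The 3 probes of Ube4b had day 4 means from −0.19 to 0.06, on both sides of 0. Arih1, a ligase that works with cullin ligases, had 0.40, 0.33 and −0.01 on the day 4 arrays, against 0.17, −0.63 and −0.04 on the day 2 arrays, and day 4 minus day 2 of 0.41 ± 0.26 (SE, log2, n = 3 an age, adjusted p 1). That difference became 0.52 when day 2 array 1 was turned in sign and −0.01 when array 2 was turned (adjusted p 0.426 and 0.986). Ufd1, an adaptor of the segregase that pulls ubiquitin-carrying proteins out of complexes, had −0.02, −0.18 and 0.23 on the day 4 arrays, against 0.10, 0.57 and 0.24 on the day 2 arrays. Its day 2 values were all above 0, and its day 4 values lay on both sides. The expressed sequence that resembles Nedd4 had −0.11 and 0.57 on day 4 arrays 2 and 3 by its brighter probe. Its second probe was above 0 on all 3 day 4 arrays, with 0.14, 0.47 and 0.24.

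The 14 ubiquitin proteases were spread evenly about 0 at day 4, with 8 fitted values below 0 and 6 above, from −0.45 to 0.46. Uchl1, a protease abundant in neurons and germ cells of mice, had −0.27 and 0.51 on day 4 arrays 2 and 3, against −0.42, 0.37 and −0.37 on the day 2 arrays. Uchl3, its relative, had 0.12 and −0.14 on day 4 arrays 1 and 2, against 0.95, −1.43 and −0.23 on the day 2 arrays. Neither gene had a direction at either age.

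Uchl5 and Usp14 are proteases that bind the proteasome, and their brightest probes lay on different sides of 0 at day 4. Uchl5 had 0.06, 0.40 and 0.91 on the day 4 arrays, against −1.12, 1.38 and 0.53 on the day 2 arrays, with a fitted day 4 log2 of 0.46 ± 0.46 (SE, n = 3, adjusted p 0.809). Usp14 had −0.37 and −0.32 on day 4 arrays 1 and 2, against −0.66, 0.16 and −0.56 on the day 2 arrays, with −0.34 ± 0.23 (SE, n = 2, adjusted p 0.744). Uchl5 was above 0 and Usp14 below 0 on every day 4 array with a value, and the day 2 arrays of both crossed 0.

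Usp7, which acts on the p53 ligase Mdm2, had −0.19, −0.01 and −1.14 on the day 4 arrays, against −0.20, 0.35 and −0.52 on the day 2 arrays. Usp21, which was also below 0 on both its day 4 arrays, had −0.10 and −0.55. Usp16, a protease of ubiquitin on histones, had 0.44 and 0.23 on day 4 arrays 1 and 2, against −0.29, 0.46 and −0.21 on the day 2 arrays, and Usp3, another protease of ubiquitin on histones, had 0.13, 0.17 and 0.51 on the day 4 arrays, against −0.58, 0.69 and −0.01 on the day 2 arrays. Usp9x, an X-linked protease, had −0.11 and 0.05 on day 4 arrays 1 and 2, against −0.59, 0.16 and −0.12 on the day 2 arrays. The proteases thus held genes on both sides of 0, each with a day 4 value under 1 log2 unit except Usp7 on array 3.

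On the day 2 arrays the proteases ran opposite to the 20S core. 11 of 14 were below 0 on array 1, with a median of −0.45, and 12 of 14 were above 0 on array 2, with a median of 0.36. 62 of the 75 members had opposite signs on day 2 arrays 1 and 2, against 74.8% of all probes, and the turn was thus common on the array as a whole. The fitted day 2 median of the proteases was −0.03, and it became 0.18 with the sign of array 1 turned and −0.37 with the sign of array 2 turned.

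The F-box genes had 7 of 11 fitted values below 0 at day 4, and 2 were below 0 and 1 above 0 on every day 4 array with a value. Kdm2b, an F-box protein that also removes methyl groups from histones and recruits Polycomb complexes, had −0.51, −0.36 and −0.74 on the day 4 arrays, against 0.05, −1.28 and −0.28 on the day 2 arrays, with a fitted day 4 log2 of −0.53 ± 0.26 (SE, n = 3, adjusted p 0.615). Fbxw11, which directs beta-catenin and other phosphorylated proteins to destruction, had −0.31 and −0.29 on day 4 arrays 1 and 2, against −0.52, 1.07 and −0.04 on the day 2 arrays. Fbxo15, known in mice as a gene of embryonic stem cells, was above 0 on each day 4 array with 0.29, 0.37 and 0.50, against −0.36, 0.79 and 0.09 on the day 2 arrays, and had a fitted value of 0.39 ± 0.22 (SE, n = 3, adjusted p 0.672). The second Fbxo15 probe had 0.10, 0.14 and −0.13 on the day 4 arrays, so that the sign held on 1 of its 2 probes. The day 4 values of Kdm2b and the brighter Fbxo15 probe were apart from each other on every array, and those of both lay within the span of their day 2 values.

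Fbxo5, an inhibitor of the anaphase promoting complex, had −0.23, 0.18 and −0.44 on the day 4 arrays, against −0.12, 0.46 and −0.11 on the day 2 arrays. Fbxw4 had 0.15 and −0.06 on day 4 arrays 1 and 2, and Fbxo6, which binds glycoproteins, had −0.65, −0.46 and 0.07 on the day 4 arrays. Fbxo32, known from wasting muscle, had −0.02 and 0.06 on day 4 arrays 1 and 2, against 0.11, 0.40 and 0.07 on the day 2 arrays. None of these 4 kept 1 sign over its day 4 arrays.

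With the deposited signs every day 4 array lay below every day 2 array for 3 of 74 members, Psme1, Ube2c and Fbxo32, against 3.98% of all probes, and for 0 members every day 4 array lay above every day 2 array, against 5.32% of all probes. When day 2 array 1 was turned in sign the members numbered 6 lower and 7 higher (8.16% and 12.6% of all probes), and when array 2 was turned they numbered 12 lower and 8 higher (9.26% and 11% of all probes). Ube2c and Fbxo32 overlapped in both turned cases, while Psme1 stayed lower. All day 2 values of Psme1 were below 0, so turning a sign could only raise them, and the turned cases add no support. The fitted differences of the 74 members between day 4 and day 2 ran from −0.82 to 0.61, with a median of −0.02 against −0.01 for all probes. They ran from −1.85 to 2.34 with the sign of array 1 turned (median −0.07) and from −1.32 to 1.27 when array 2 was turned (median −0.04). The spread behind them was unequal: the median SD between arrays was 0.21 for the day 4 arrays and 0.63 for the day 2 arrays over members, against 0.18 and 0.34 over all probes, while the 4 repeats of a probe on 1 array had a median SD of 0.14 over members.

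Several probes named the same gene for 19 of the 75 names, up to 4 probes for Ube2l3. At day 4 all probes of a name had the same sign of the mean in 13 of the 19. The 3 probes of Psmc2, an ATPase of the 19S ring, had day 4 means from −0.21 to −0.20, the 2 of Psmc3 had −0.45 and −0.43 and the 2 of Psmd1 had −0.49 and −0.56. The probes of each of these 3 genes lay close together at day 4. At day 2 the probes of Psmc3 differed, with −1.14, 0.15 and −0.80 for the brighter and −0.19, −0.70 and −0.26 for the second. The brighter probe of Psmd2 had −1.74 and 2.37 on day 2 arrays 1 and 2, where the second had 0.44 and −0.43. For Uchl5 the brighter probe had −1.12 and 1.38 on the same arrays, where the second had 0.49 and −1.18.

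In 5 of the 19 names, Psmd2, Uchl5, Usp14, Usp15 and Usp9x, the second probe had the sign opposite to the brighter one on both day 2 array 1 and day 2 array 2, and in 8 it did so on at least 1 of these arrays. The second Usp14 probe had 0.35 and −0.86 there and the second Usp9x probe 0.53 and −0.32. At day 4 the second Uchl5 probe had −0.03 and −0.09 on arrays 1 and 2, and the positive day 4 value of Uchl5 was seen on 1 of its 2 probes. The second Usp7 probe had 0.19 and 0.27 on those arrays, of opposite sign to the brighter one. The second probe of Fbxl12, an F-box gene with leucine-rich repeats, had −0.84, −0.64 and −0.13 on the day 4 arrays and a fitted −0.54 ± 0.15 (SE, n = 3, adjusted p 0.319), while the brighter one had −0.47, −0.61 and 0.19.

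**Figure D4:**
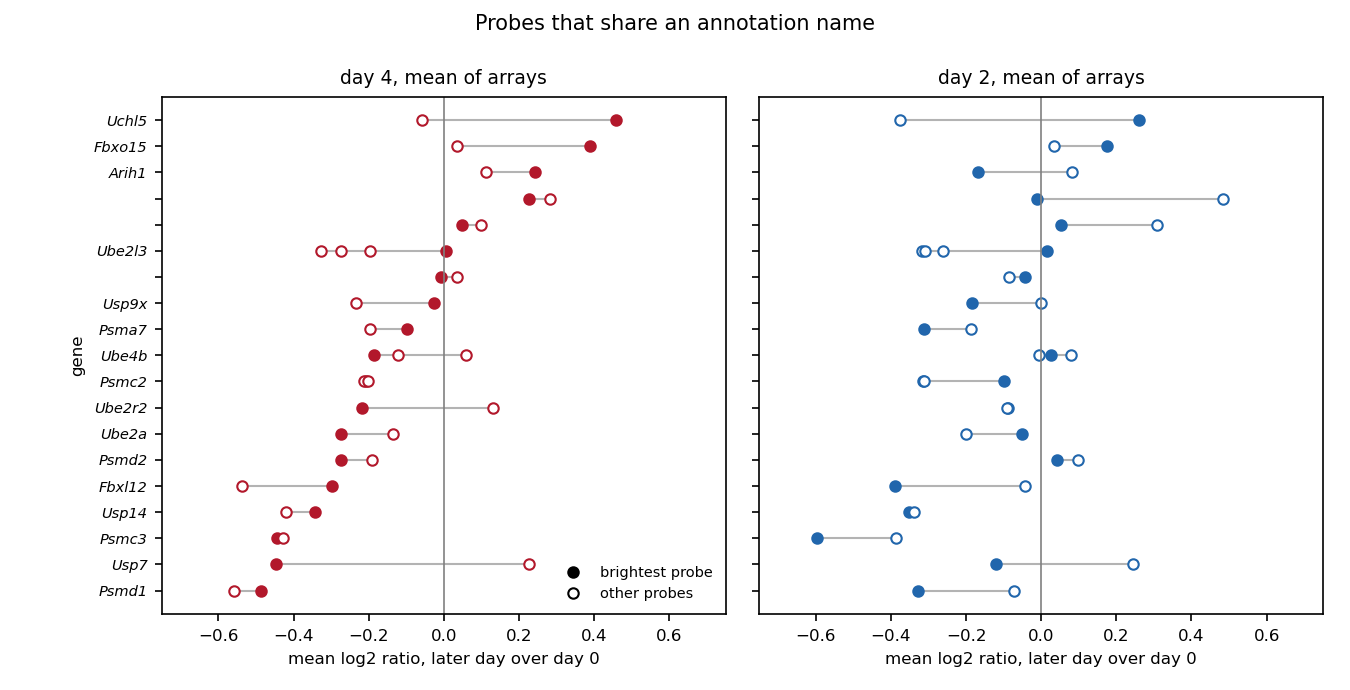
Mean log2 ratio over the arrays of an age (horizontal axis) for each probe of the 19 names with more than 1 probe (rows, by the day 4 mean of the brightest, labelled where the text names them), at day 4 (left) and day 2 (right). Filled points are the brightest probes and open points the others, and in 13 rows all day 4 points lie on 1 side of 0.

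Genes of the same pathway whose annotation holds none of the 3 words were taken from a list of their own. Of them 72 were measured, each read by its brightest probe, and 0 of these probes passed the test in either direction in any of the 3 comparisons by limma. At an unadjusted p under 0.05, 3 were higher and 7 lower at day 4 against day 0, 0 higher and 2 lower at day 2 against day 0, and 0 higher and 2 lower at day 4 against day 2. Of all probes 5% were higher and 4.29% lower at day 4, 1.72% higher and 1.12% lower at day 2, and 1.97% higher and 0.676% lower for day 4 against day 2. 53 of the 72 had a fitted day 4 log2 below 0, with a median of −0.16, against 50.2% of all probes below 0. Of 12 parts of cullin ligases 11 were below 0, with a median of −0.36, among them Btrc, the close relative of Fbxw11, with −0.56 and −0.54 on day 4 arrays 1 and 2, and Cul4b, a cullin, with −0.38, −0.28 and −1.70 on the 3 day 4 arrays. Other probes of these parts lay on both sides of 0, with fitted day 4 values of −0.27 and −0.79 for Cul4b, −0.25 for Btrc and 0.47 and 0.37 for Cul1. A dimmer probe of Spopl, also a cullin ligase part, did pass the test at day 4 against day 0. It had 2.08, 2.41 and 1.32 on the day 4 arrays, with a fitted 1.94 ± 0.22 (SE, n = 3, adjusted p 0.0329 by limma). Of its 3 day 4 values, 2 carried a signal or outlier flag. The brightest probes of the 12 parts, that of Spopl among them, had fitted day 4 values of at most 0.17. Of 6 subunits of the COP9 signalosome, which trims a ubiquitin-like tag from cullins, 5 were below 0, with a median of −0.39. Cops2 had −0.54, −0.13 and −1.33 on the day 4 arrays, and Cops3 had −0.55 and −0.68 on arrays 1 and 2. A dimmer Cops2 probe had −0.16 and −0.06 on day 4 arrays 1 and 2. Of 42 RING and other ligases 27 were below 0, with a median of −0.08. In this list Rnf43, a ligase that removes Wnt receptors from the membrane, had 1.80, 1.75 and 0.58 on the day 4 arrays, against 0.16, 1.31 and 0.73 on the day 2 arrays, with a fitted 1.38 ± 0.31 (SE, n = 3, adjusted p 0.196). Trim37 had −0.71, −0.65 and −0.87, with −0.75 ± 0.17 (SE, n = 3, adjusted p 0.194).

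3 genes of the system are spelled otherwise in the annotation and so fall outside the word rule. Psmc5, an ATPase of the 19S ring, had a fitted day 4 log2 of −0.31, the activator subunit Psme3 had −0.004 and Usp10 had 0.04. A further 10 F-box genes stand under clone names, found by name once the annotation had been read. 9 of these had fitted day 4 values between −0.04 and 0.50. The tenth, Fbxw27, of the rodent F-box and WD-40 family, had 3.17, 4.35 and 3.42 on the day 4 arrays, against 1.26, 1.32 and 2.35 on the day 2 arrays. Its fitted day 4 log2 was 3.65 ± 0.30 (SE, n = 3), with an adjusted p of 0.0105 by limma, and all 6 values were above 0. The family has closely related copies in mice, and which of them this clone reports is uncertain.

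Markers of the cell types of the ovary were read on the same arrays. All 7 measured oocyte markers had fitted day 4 values above 0, from 0.01 to 3.64, with a median of 2.39 and medians of 2.24, 2.61 and 2.33 on day 4 arrays 1, 2 and 3, against −0.03, 0.88 and 0.67 on day 2 arrays 1, 2 and 3. 2 of them passed the test at day 4. Both measured granulosa cell markers were above 0 (0.41 and 0.75), as were the 5 smooth muscle and stroma markers (0.01 to 0.71) and the 3 markers of steroid-making cells (0.12 to 0.53). These are fitted values. On every day 4 array with a value, 3 of the smooth muscle and stroma markers and 0 of the steroid-making cell markers were above 0. The 5 erythroid markers were below 0 (−1.46 to −0.48), with a median of −0.88. Gdf9, a growth factor of the oocyte, had 3.31, 3.42 and 3.42 on the day 4 arrays by its brightest probe, against −0.45, 2.49 and 1.86 on the day 2 arrays. Dimmer probes of Gdf9 were above 0 on every array, with 0.64 and 0.03 on day 2 array 1. The part of these shifts in the values of the ubiquitin and proteasome genes was not tested.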

How the data were processed

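Each of the 6 arrays gave, per the file headers, a deposited log2 ratio (Cy5, later day, over Cy3, day 0) for 4 repeats of each probe, their mean and a mean log2 intensity over both dyes. The authors' deposited SD of the repeats, a score on the log2 scale, is printed as a median, and the authors' deposited p-value per probe and array was not used. R 1.7.1 is named in the submitters' processing notes, and the sources used here do not give the background correction or the normalization. The mean of the repeats was used as deposited. A probe was tested when it had values on at least 2 arrays of each age (8135 of 8272 probes) with limma 3.58.1 in R 4.3.3: 1 mean per age, all 6 arrays in 1 fit, moderated variances, 2-sided tests and Benjamini-Hochberg adjustment over all probes with a threshold of 0.05. SEs come from this fit and rest on the spread of both ages, n is the number of arrays with a value, and the number of arrays limits the precision. Day 4 against day 2 is indirect, through day 0. The deposited table of the authors' mean log2 ratios was an alternative.

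Symbols of 73 names were checked in a RefSeq gene table (GRCm38.p6), which served for names only, and promoters came from a RefSeq promoter table of the same build. Members and lists were chosen with earlier results of these data known. Named were members past the threshold, up to 3 of each class and direction with the smallest p at day 4 and 1 sign on its arrays, 1 of each class and direction with the smallest p for day 4 against day 2, the brightest of each class and a list of known genes. Others were named once their values were known. The fit was run on simulated data first. Alternatives were other scalings, filters, variance models, probe rules, signs of the day 2 arrays and arrays left out. Values of 4 members are not reported here singly.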

Additional observations from a re-analysis of the deposited data

Results flagged for a closer look

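Ube2c, the E2 of the anaphase promoting complex, was below 0 on both day 4 arrays with a value (−0.001 and −0.077) and above 0 on all 3 day 2 arrays (0.16, 0.88 and 0.20). The signs of the ages were opposite, but the fitted day 4 value, −0.04 ± 0.22 (SE, log2, n = 2), lay within its SE of 0. The direct test of the difference gave −0.45 ± 0.28 (SE, log2, day 4 minus day 2) with an adjusted p of 1 by limma. The difference did not pass. The values are as deposited: when day 2 array 1 was turned in sign the difference was −0.34, and when array 2 was turned 0.13 (adjusted p 0.708 and 0.893).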

How the results depend on the processing

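Of the members tested in each fit, 48 to 74, none passed the test in any comparison under the alternatives run except Psma6, which passed for day 4 against day 0 with the day 4 arrays alone, an alternative added after the data were seen. The count of all probes past the test for day 4 against day 0, 39 as reported, moved to 96 with arrays scaled to the same spread, 126 with trend and robust variances, 0 with array 3 of both ages left out (433 at an unadjusted p under 0.05 by limma), 0 once day 2 array 2 had its sign turned (897 unadjusted) and 166 with the day 4 arrays alone. With each array left out in turn it ran from 0 to 71: 0 without each day 4 array (339 to 588 unadjusted), 71 without day 2 array 1 and 16 without day 2 array 3. For day 4 against day 2 the count moved to 1 with trend and robust variances. The cause was not tested. With the replicate number as a block it was 21 for day 4 against day 0 and 0 in the other comparisons. Deviations of same-numbered arrays correlated with r of 0.365, 0.053 and 0.515 over 5270 probes, and not every array correlated best with its own number, so that the numbers were not taken to pair the arrays.

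The day 4 median of the 20S core stayed below 0 under all 20 alternatives, from −0.425 to −0.176, as did those of 19S and other proteasome proteins, from −0.29 to −0.16, ubiquitin, E1 and E2 genes, from −0.21 to −0.05, and F-box genes, from −0.207 to −0.035. The medians of the ligases and of the proteases changed sign under 3 and 5 of the 20. Turning or leaving out a day 2 array, another variance model or the day 4 arrays alone could not move a fitted day 4 value. The day 4 ranges given here thus rest on the other alternatives. The fitted day 4 value of Ubb ran from 0.93 to 1.6 over 19 alternatives, with adjusted p from 0.0747 to 0.902, and that of Psme1 from −0.86 to −0.64 over 16, with 0.0965 to 0.666. At day 2 the sign of the median turned with the array whose sign was turned for 20S core, and likewise for ubiquitin, E1 and E2 genes, at −0.30 with array 1 turned and 0.29 with array 2 turned, against −0.07 as reported. The 19S median was 0.155 and −0.08 in these 2 cases, against −0.06, that of the ligases 0.235 and −0.20, against 0.05, and that of the F-box genes 0.08 and −0.07, against 0.03. The precision is limited by 3 arrays an age, with a median SD between arrays over members of 0.21 at day 4 and 0.63 at day 2.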
